A study of Mus musculus with 4 samples.

Results

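The genes described here encode the D-type cyclins (Ccnd1, Ccnd2 and Ccnd3), their kinase partners Cdk4 and Cdk6, and 5 cyclin-dependent kinase inhibitors (Cdkn1a, Cdkn1b, Cdkn1c, Cdkn2c and Cdkn2d). They were chosen by name, and all 10 were present among the 24411 genes of the deposited tables and passed the filter on low counts. The study set Dis3-/- hematopoietic stem cells against wild-type cells, with 2 RNA-seq libraries of 100 sorted cells per genotype. Dis3-/- cells came from Dis3fl/fl;Mx-Cre donors and wild-type cells from Dis3fl/fl donors, so both genotypes carried the floxed allele and wild-type donors had no Cre. Both were C57BL/6, and marrow of either genotype had been grafted into lethally irradiated CD45.1 hosts. At 4 weeks after grafting, 300 µg of pIpC was injected on days 0 and 2, and lineage-negative, EPCR-positive, CD150-positive, CD48-negative cells were sorted on day 4. Mx-Cre is driven by an interferon-inducible promoter, and pIpC is a double-stranded RNA analogue that induces interferon. That wild-type mice also received pIpC is read from protocol text common to all samples. The design text gives 2 mice, without tying each library to a mouse, and the labels give neither the age of the animals nor a gate on donor cells.

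D-type cyclins bind Cdk4 or Cdk6, and the active pair phosphorylates the retinoblastoma protein, which releases E2F factors and lets a cell pass from G1 into S phase. The INK4 inhibitors, here Cdkn2c and Cdkn2d, bind the kinases themselves. The Cip/Kip inhibitors, Cdkn1a, Cdkn1b and Cdkn1c, bind cyclin-kinase complexes and can block Cdk2. In mouse hematopoietic stem cells Cdkn1c and Cdkn1b are known for their part in holding cells in quiescence, and Cdk6 for its part in exit from it. DIS3 is a catalytic subunit of the RNA exosome, which degrades RNA from its 3' end. The comparison asks how these transcripts stood when Dis3 was targeted.

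Dis3 itself stood at 23.6 and 30.2 CPM in Dis3-/- libraries, against 55.9 and 53.2 CPM in wild-type libraries (log2 fold change -1.02 ± 0.14, SE; edgeR adjusted p = 2.58e-04). CPM stands for read counts scaled to a common library size (by TMM). Which exons were floxed is not stated in the labels, so the remaining reads do not measure how many cells kept the gene. Library totals were 6085367 and 6442740 expected counts in Dis3-/- and 6818535 and 6251761 in wild-type cells. By edgeR, 2811 of 12244 tested genes passed an adjusted p of 0.05, which is 23.0% of them, with 12.7% higher and 10.2% lower in Dis3-/- cells. Summed CPM of the 3 sort marker genes was 74.9 and 85.4 in Dis3-/- and 91.1 and 83.5 in wild-type libraries. The 5 T cell markers summed to at most 2.02 and 1.75 CPM in Dis3-/- and wild-type libraries, with Cd3e and Cd3g at 0 in all 4. Lowest and highest sums of the 4 B cell markers were 11.8 and 13.9 in Dis3-/- against 14.8 and 16.2 in wild type, with Ms4a1 at 0. For the 7 granulocyte and monocyte markers found in the table they were 185 and 196 in Dis3-/- against 214 and 236 in wild type, most of it Lyz2. Of the 3 of them that were tested 0 rose and 1 fell by edgeR. Itgam had 11.3 and 11.9 CPM in Dis3-/- against 26.8 and 34.0 in wild-type libraries. The 7 erythroid markers gave 32.4 and 44.6 against 27.7 and 29.9, most of it Hbb-bt, with Hba-a2, Hbb-bs and Car1 at 0. The 5 endothelial and stromal markers gave at most 2.69 and 5.40. The 5 megakaryocyte and 3 mast cell markers are given beside Cdk6 below.

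Of the 10 genes, 2 rose (Ccnd1 and Cdk4) and 2 fell (Cdk6 and Cdkn1a) in Dis3-/- cells, and 6 did not pass the test. That is 40.0% called, beside 23.0% of all tested genes. The median log2 fold change of the 10 was -0.16, beside -0.0027 for all tested genes. In CPM the libraries of the genotypes did not overlap for any of the 10, with 4 higher and 6 lower in Dis3-/- cells, a property shared by 62.4% of all tested genes. In the deposited TPM, which are also scaled by gene length, Ccnd3 and Cdkn2c did overlap. These are levels per sorted library, so fewer cells of a kind and less RNA per cell cannot be told apart.

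**Figure D1:**
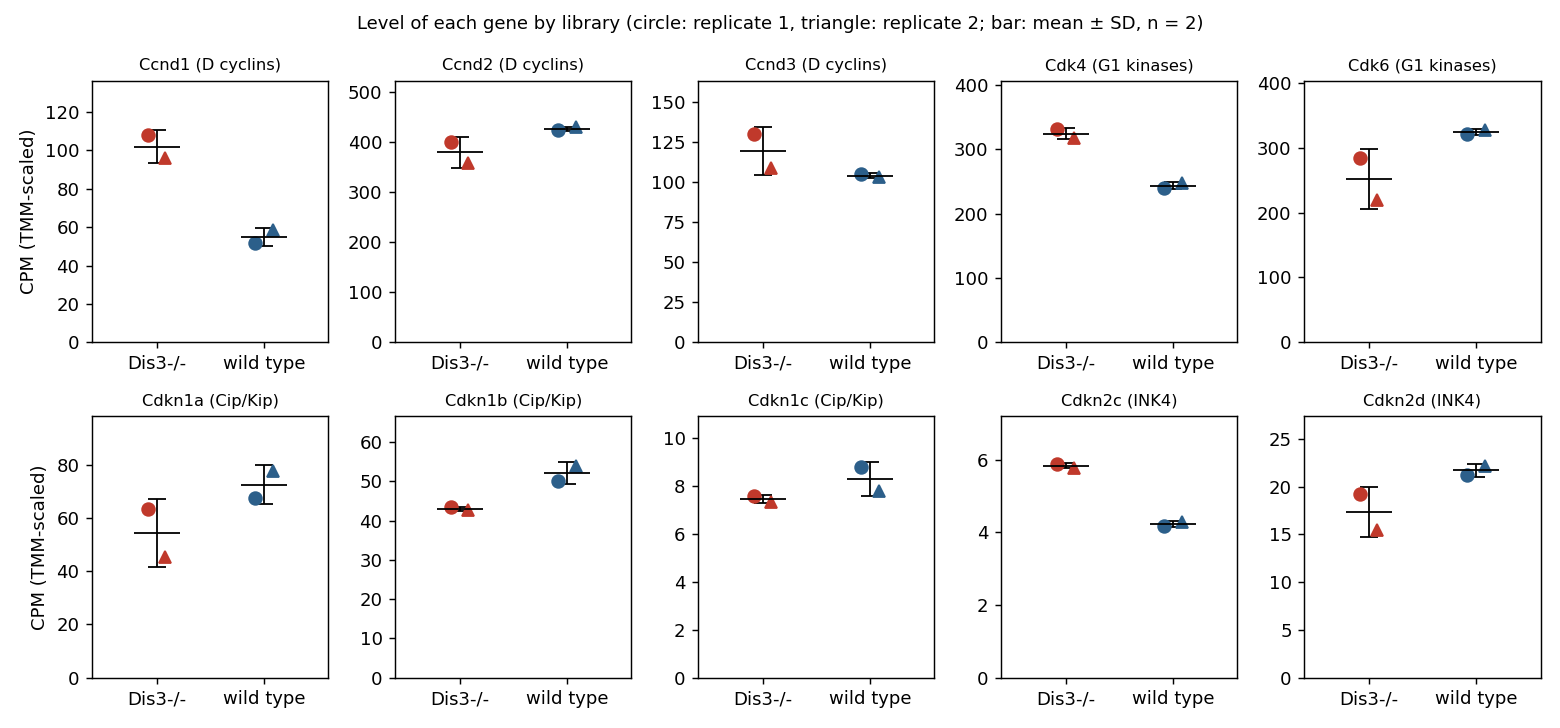
CPM of each gene (vertical axes, each from 0) in the 2 Dis3-/- libraries and the 2 wild-type libraries, with the mean and SD (n = 2). Ccnd1 lies at 108 and 96.0 CPM in Dis3-/- cells, clear of 51.7 and 58.4 CPM in wild type, while for Cdk6 and Cdkn1a the Dis3-/- libraries lie far apart from each other.

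Ccnd1 had the widest change of the group. Its counts were 641 and 614 in Dis3-/- libraries, against 359 and 368 in wild-type libraries. Scaled to CPM, it averaged 102 ± 8.40 in Dis3-/- and 55.1 ± 4.75 in wild-type cells (SD, n = 2 each). Both Dis3-/- libraries lay far above both wild-type libraries. The fold change was 1.85, with a 95% interval of 1.58 to 2.18 (log2 0.89 ± 0.11, SE; edgeR adjusted p = 8.26e-05), and it was called under all 13 alternative settings. Ccnd1 lies on chromosome 7 (144929931 to 144939831, mm10, minus strand). Its annotated exons share 1100 bases with those of Oraov1 (LTO1) on the other strand, and whether the counting used strand is not stated in the labels. The counts of Ccnd1 were whole in every library, and how reads in the shared bases were assigned was not tested. Oraov1 stood at 12.3 and 14.9 CPM in Dis3-/- against 17.3 and 15.7 in wild-type libraries (-0.28 ± 0.21, edgeR adjusted p = 0.356), well below Ccnd1 in reads.

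The other D cyclins did not pass the test. Ccnd2 (chromosome 6, 127125162 to 127152188) had 401 and 358 CPM in Dis3-/- libraries, against 424 and 429.9 CPM in wild-type libraries. The wild-type values were close together and above both Dis3-/- values. The log2 fold change was -0.17 ± 0.07, with an interval of -0.33 to -0.01, and edgeR adjusted p = 0.119. Ccnd2 passed on log2(TPM + 1) values (-0.28, limma adjusted p = 0.0444) and with Dis3-/- replicate 1 left out (-0.25, edgeR adjusted p = 0.0381), and its value was -0.089 without Dis3-/- replicate 2. Over the 13 alternatives its adjusted p ran from 0.0381 to 0.504.

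Ccnd3 (chromosome 17, 47505051 to 47599689) had 129.8 and 109 CPM in Dis3-/- libraries, against 105 and 103 CPM in wild-type libraries. The gap to wild type was wide in Dis3-/- replicate 1 and narrow in replicate 2. Its log2 fold change of 0.20 ± 0.10 did not pass (edgeR adjusted p = 0.166); without Dis3-/- replicate 2 it was 0.32 (edgeR adjusted p = 0.0453), and without replicate 1 it was 0.0729. Over all alternatives its adjusted p ran from 0.0453 to 0.733. Ccnd3 was the one gene of the 10 with counts that were not whole, and it shares 361 exon bases with Bysl, which rose (0.56 ± 0.13, edgeR adjusted p = 8.16e-03) but missed the threshold once wild-type replicate 1 was left out (0.48, adjusted p = 0.0530 by edgeR) and on log2(TPM + 1) values (limma adjusted p = 0.0760).

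The make-up of the D cyclin transcripts differed between genotypes, in a measure that does not depend on scaling between libraries. Ccnd1 made up 17.4% and 17.7% of D cyclin TPM in Dis3-/- libraries, against 9.7% and 10.8% in wild-type libraries. Ccnd2 made up 41.9% and 42.8% in Dis3-/- and 51.6% and 51.7% in wild-type libraries. Ccnd2 thus held the largest share in every library. Ccnd3 held 40.7% and 39.5% in Dis3-/- and 38.7% and 37.5% in wild-type libraries. The summed TPM of the 3 genes averaged 345 ± 25.8 in Dis3-/- and 344 ± 1.23 in wild-type cells (SD, n = 2 each), and the libraries overlapped. An exact 2-sided permutation test over 2 against 2 libraries cannot give a p below 0.333, so these shares carry no test.

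The kinase partners moved in opposite directions. Cdk4 (chromosome 10, 127063535 to 127067288) had 331 and 318 CPM in Dis3-/- libraries, against 240.0 and 247 CPM in wild-type libraries. Replicates of either genotype lay close together and the genotypes well apart. The fold was 1.33, with a 95% interval of 1.19 to 1.49 (log2 0.41 ± 0.07; edgeR adjusted p = 1.41e-03), and all 13 alternatives called it. Cdk4 shares 641 exon bases with Tspan31 on the other strand, which had 57.4 and 51.0 CPM in Dis3-/- against 55.0 and 60.7 CPM in wild-type libraries (-0.09 ± 0.12, edgeR adjusted p = 0.611). Of the 10 genes, 7 overlap 9 genes on the other strand, of which 4 are in the deposited tables. Cdk6 shares 368 exon bases with Gm17590, Cdkn1a 273 with AC167363.2 and Cdkn1c 625 with Gm44732. Ccnd2 shares 372 with Gm43126 and 368 with 9330179D12Rik, which had at most 0.318 CPM. Of these partners only 9330179D12Rik is in the tables, and the part of antisense reads was not tested.

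Cdk6 (chromosome 5, 3341004 to 3531008) had 284 and 219 CPM in Dis3-/- libraries, against 321 and 328 CPM in wild-type libraries. Wild-type replicates nearly coincided, whereas the Dis3-/- replicates lay far apart. The log2 fold change was -0.37 ± 0.10, a fold of 0.775 with a 95% interval of 0.666 to 0.901 (edgeR adjusted p = 0.0185). The size of the fall rested on Dis3-/- replicate 2: without it the value was -0.19 and the call ended (edgeR adjusted p = 0.148), and without replicate 1 it was -0.56. On log2(TPM + 1) values with no filter the call ended too (limma adjusted p = 0.0793), and over all alternatives the adjusted p ran from 1.88e-06 to 0.148. The 5 megakaryocyte markers summed to 66.0 and 34.9 CPM in Dis3-/- and 61.8 and 79.7 CPM in wild-type libraries, and the 3 mast cell markers to 5.22 and 1.72 against 7.35 and 12.9 CPM, with Ms4a2 at 0. Most of the megakaryocyte sum was Itga2b (48.3 and 24.2 CPM in Dis3-/- against 45.2 and 63.0 CPM in wild-type libraries). By edgeR 0 of the 3 tested megakaryocyte markers were called, and the 1 tested mast cell marker fell. Like Cdk6, both sums were lower in Dis3-/- replicate 2 than in replicate 1. So were the stem cell, granulocyte and monocyte, erythroid, T cell, and endothelial and stromal sums, while the sort and B cell sums were higher. All 10 genes described here were lower there as well, so this likeness is not particular to Cdk6. The part of the marker genes in the Cdk6 and Cdkn1a values was not tested.

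Within the kinase pair, Cdk4 made up 69.3% and 73.8% of the TPM of Cdk4 plus Cdk6 in Dis3-/- libraries, against 59.1% and 59.3% in wild-type libraries. The ratio of Cdk4 to Cdk6 transcripts per length averaged 2.53 ± 0.392 in Dis3-/- and 1.45 ± 0.0103 in wild-type cells (SD, n = 2 each). Both Dis3-/- libraries lay above both wild-type libraries, by a margin wider than either replicate gap. Summed TPM of the pair was 818 ± 42.8 in Dis3-/- and 799 ± 5.15 in wild-type cells, and the libraries overlapped. Without Dis3-/- replicate 1 the log2 ratio of that sum was -0.0205, where it was 0.0339 with all libraries.

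The promoters of this pair are shown because their transcripts moved in opposite directions. RefSeq (GRCm38.p6) gave windows for 7 of the 10 genes: Ccnd3, Cdk4, Cdk6, Cdkn1a, Cdkn1b, Cdkn2c and Cdkn2d. Some of their transcript starts lie inside the gene span given in the text, among them the only start found for Cdkn2d. In the 250 bases before each start, both strands were searched for 4 spellings of the E2F site (TTTCCCGC, TTTGGCGC, TTTCGCGC and TTTGCCGC), the CHR element of mitotic genes (TTTGAA), a FOXO site (TGTTTAC) and the E-box bound by Myc and related factors (CACGTG, which reads the same on either strand). No E2F or CHR letters were found in these windows, letters that 1.86% and 16.0% of all 32851 RefSeq windows of that length hold. A FOXO match lay 243 bases before the first of the Ccnd3 starts (3.17% of all windows hold one). E-boxes were in the windows of Cdk4 and Cdk6, and 6.02% of all windows hold at least 1. Cdk4 had 4 of them, beginning 172, 118, 98 and 11 bases before its start, and 7 of the 32851 windows have 4 or more. That cut is the count of Cdk4 itself, so its rarity is a description and not a test. RefSeq gave 1 window for Cdk6, before a transcript start that lies inside the gene span given above, and it held 1 E-box, beginning 220 bases before that start. The plus strand is printed up to the next exon annotated in GENCODE M21, for Cdk4 at chr10:127063285-127063533 and for Cdk6 at chr5:3343643-3343731, with E-boxes in capitals.
Cdk4: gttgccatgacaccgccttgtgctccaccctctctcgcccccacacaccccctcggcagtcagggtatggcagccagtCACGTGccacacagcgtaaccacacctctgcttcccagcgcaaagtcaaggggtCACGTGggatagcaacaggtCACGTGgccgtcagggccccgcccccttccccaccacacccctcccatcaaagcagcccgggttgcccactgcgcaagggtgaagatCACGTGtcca
Cdk6: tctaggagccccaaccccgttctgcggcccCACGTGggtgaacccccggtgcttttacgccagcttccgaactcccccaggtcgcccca
These letters are a description of the windows, and binding was not measured.

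**Figure D2:**
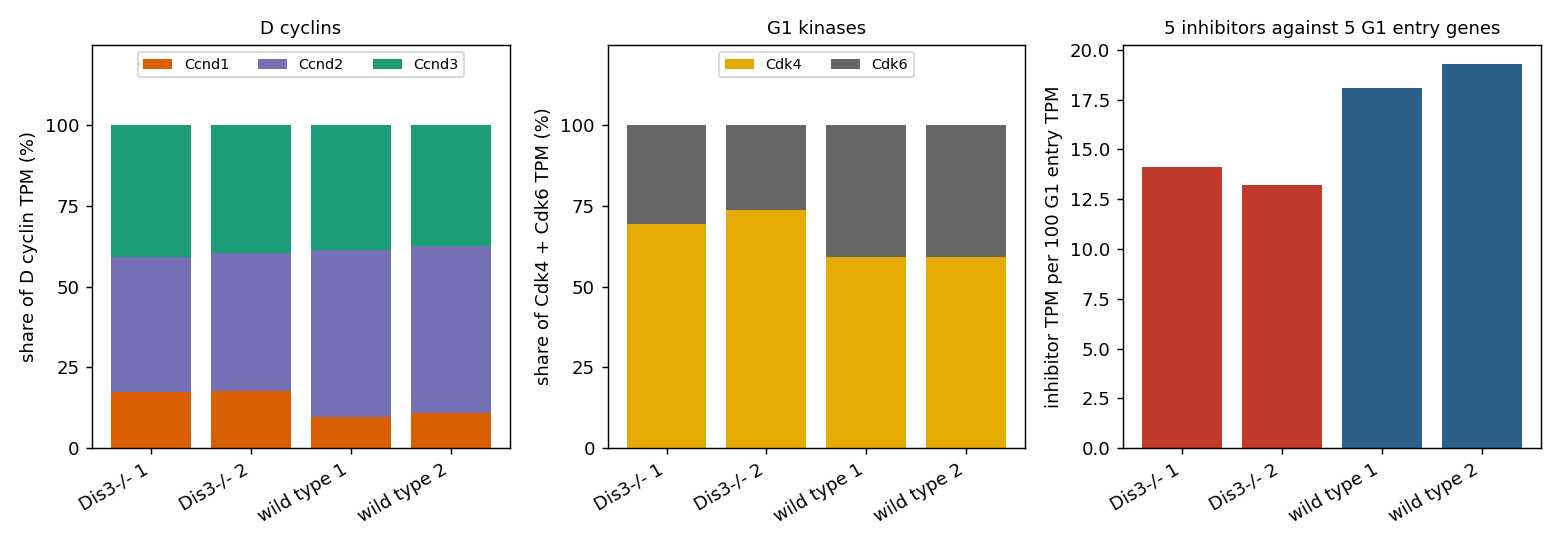
Shares of TPM within each library for the D cyclins (left) and for Cdk4 and Cdk6 (middle), and inhibitor TPM per 100 TPM of the 5 D cyclin and kinase genes (right), in the 2 Dis3-/- and 2 wild-type libraries. The Ccnd1 and Cdk4 shares are larger in both Dis3-/- libraries, and the inhibitor value is 14.1 and 13.2 there against 18.1 and 19.3 in wild type.

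Among the Cip/Kip inhibitors 1 of 3 fell and 0 rose by edgeR. No Cip/Kip gene rose with DESeq2, limma-voom or any other alternative that used all libraries. By edgeR 2 of the 3 had an unadjusted p under 0.05, both with lower values in Dis3-/- cells. That count was 1 with DESeq2 and 1 with the replicate block. The share of all tested genes with such an unadjusted p was not counted, so it carries no weight beyond the single genes. Cdkn1a (chromosome 17, 29090979 to 29100722), a p53 target, had 63.3 and 45.3 CPM in Dis3-/- libraries, against 67.4 and 77.8 CPM in wild-type libraries. The higher Dis3-/- library lay just under the lower wild-type library. The log2 fold change was -0.42 ± 0.14 (edgeR adjusted p = 0.0499), with a 95% interval of -0.73 to -0.11. It was called under 6 of 13 alternatives, with an adjusted p between 2.25e-04 and 0.366. The call ended with DESeq2 (adjusted p = 0.111), on log2(TPM + 1) values (limma adjusted p = 0.0599), and with replicate 2 of either genotype left out, at -0.19 for Dis3-/- (edgeR adjusted p = 0.366) and at -0.32 for wild type (edgeR adjusted p = 0.185). Without Dis3-/- replicate 1 it was -0.67.

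Cdkn1b (chromosome 6, 134920401 to 134925525) had 43.4 and 42.7 CPM in Dis3-/- libraries, against 50.1 and 54.0 CPM in wild-type libraries. The Dis3-/- replicates nearly coincided below both wild-type values. Its log2 fold change of -0.27 ± 0.12 did not pass (edgeR adjusted p = 0.119), but did on log2(TPM + 1) values (-0.38, limma adjusted p = 0.0458). Over the alternatives the adjusted p ran from 0.0458 to 0.379.

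Cdkn1c (chromosome 7, 143458339 to 143461059), an imprinted gene, was among the lowest of the 10. It had 45 and 47 counts in Dis3-/- libraries, against 61 and 49 counts in wild-type libraries, or 7.57 and 7.35 against 8.79 and 7.78 CPM. The values of the genotypes nearly touched. At this depth the log2 fold change of -0.15 ± 0.28 (edgeR adjusted p = 0.746) has a 95% interval of fold changes from 0.590 to 1.37, so that a modest difference in either direction was not detectable. No alternative called it, with an adjusted p between 0.429 and 0.939.

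Of the INK4 inhibitors 0 of 2 were called by edgeR, DESeq2 or limma-voom, and 0 had an unadjusted p under 0.05 by these tools. Cdkn2d (chromosome 9, 21288459 to 21291421) had 19.2 and 15.5 CPM in Dis3-/- libraries, against 21.2 and 22.2 CPM in wild-type libraries. Its value of -0.33 ± 0.19 (edgeR adjusted p = 0.228) ran from -0.48 without Dis3-/- replicate 1 to -0.17 without Dis3-/- replicate 2. Cdkn2c (chromosome 4, 109660876 to 109666756) had 35 and 37 counts in Dis3-/- libraries, against 29 and 27 counts in wild-type libraries. The replicates of each genotype were nearly equal in CPM, at 5.89 and 5.79 in Dis3-/- and 4.18 and 4.29 in wild type, yet its interval ran from -0.32 to 1.24 on the log2 scale (0.46 ± 0.36, edgeR adjusted p = 0.395). In TPM the genotypes overlapped, at 7.92 and 9.58 in Dis3-/- against 8.54 and 7.44 in wild type. The length that the deposited TPM imply for Cdkn2c differed between libraries by a factor of 1.38, more than for 99.8% of 10435 genes compared, so its mix of transcripts was estimated differently from library to library. For each of the other 9 genes that factor was at most 1.01. The remaining INK4 genes were all but silent: Cdkn2a had no count in any library, and Cdkn2b averaged 0.156 CPM in Dis3-/- and 0 in wild-type cells.

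**Figure D3:**
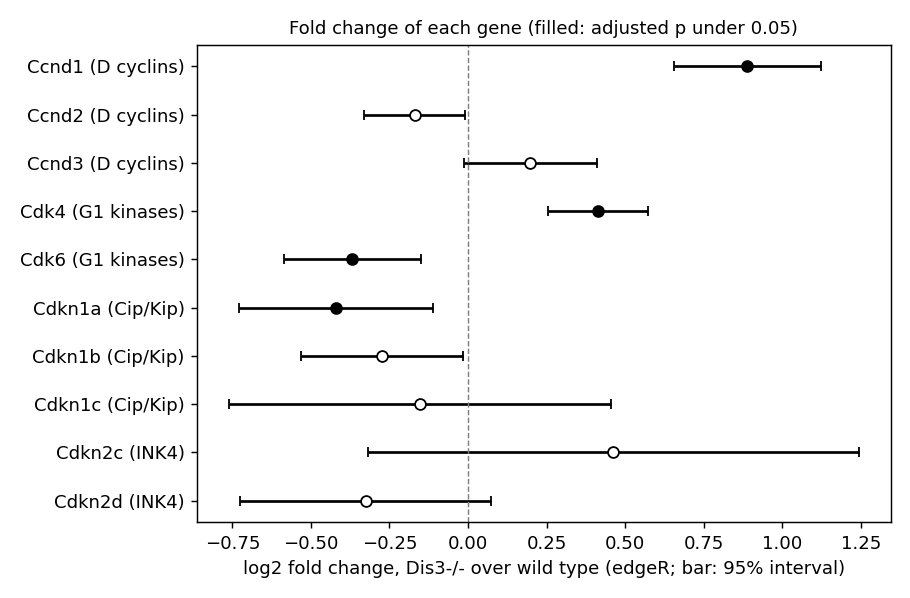
Log2 fold change of each gene, Dis3-/- over wild type, with its 95% interval from edgeR and filled points for an adjusted p under 0.05. Ccnd1 and Cdk4 lie to the right of 0 and Cdk6 and Cdkn1a to the left, and the intervals of Cdkn1c and Cdkn2c are the widest.

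Together the 5 inhibitor genes had 171 and 147 TPM in Dis3-/- libraries, against 207 and 221 TPM in wild-type libraries. The 5 D cyclin and kinase genes had 1212 and 1115 TPM in Dis3-/- and 1141 and 1146 TPM in wild-type libraries. The inhibitor sums of the genotypes lay apart, and the other sums overlapped. Per 100 transcripts of the D cyclins and kinases there were thus 13.6 ± 0.666 inhibitor transcripts in Dis3-/- and 18.7 ± 0.797 in wild-type cells (SD, n = 2 each). Cdkn1a, the largest part of the inhibitor sum, averaged 66.4 TPM in Dis3-/- and 96.1 TPM in wild-type cells. Its call (edgeR adjusted p = 0.0499) ended with DESeq2 (adjusted p = 0.111). On CPM the log2 ratio of the inhibitor sum was -0.312, where TPM gave -0.429. Cdkn1a and the sums themselves were chosen with earlier results known, and no test was made of the sums.

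Ranked by TPM, a level per length, the order in Dis3-/- cells was Cdk4 (585 ± 4.77), Cdk6 (234 ± 38.1), Ccnd2 (146 ± 8.72), Ccnd3 (139 ± 13.3), Cdkn1a (66.4 ± 14.2), Ccnd1 (60.4 ± 3.83), Cdkn1b (41.3 ± 0.304), Cdkn2d (33.3 ± 4.36), Cdkn1c (9.18 ± 0.0141) and Cdkn2c (8.75 ± 1.17; SD, n = 2 each). There the libraries of Ccnd2 and Ccnd3, of Cdkn1a and Ccnd1, and of Cdkn1c and Cdkn2c overlapped, so these neighbours were not told apart. In wild-type cells the order was Cdk4 (473 ± 4.42), Cdk6 (326 ± 0.728), Ccnd2 (178 ± 0.495), Ccnd3 (131 ± 3.34), Cdkn1a (96.1 ± 8.57), Cdkn1b (53.9 ± 2.17), Cdkn2d (45.0 ± 1.02), Ccnd1 (35.3 ± 2.61), Cdkn1c (11.0 ± 1.13) and Cdkn2c (7.99 ± 0.778), and no neighbours overlapped. Ccnd1 stood above Cdkn1b and Cdkn2d in Dis3-/- cells and below them in wild-type cells, and the order of the other genes was the same in both genotypes. Cdk4 was at the 98.9th percentile of detected genes by mean TPM over all libraries, and Cdkn2c at the 38.7th.

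**Figure D4:**
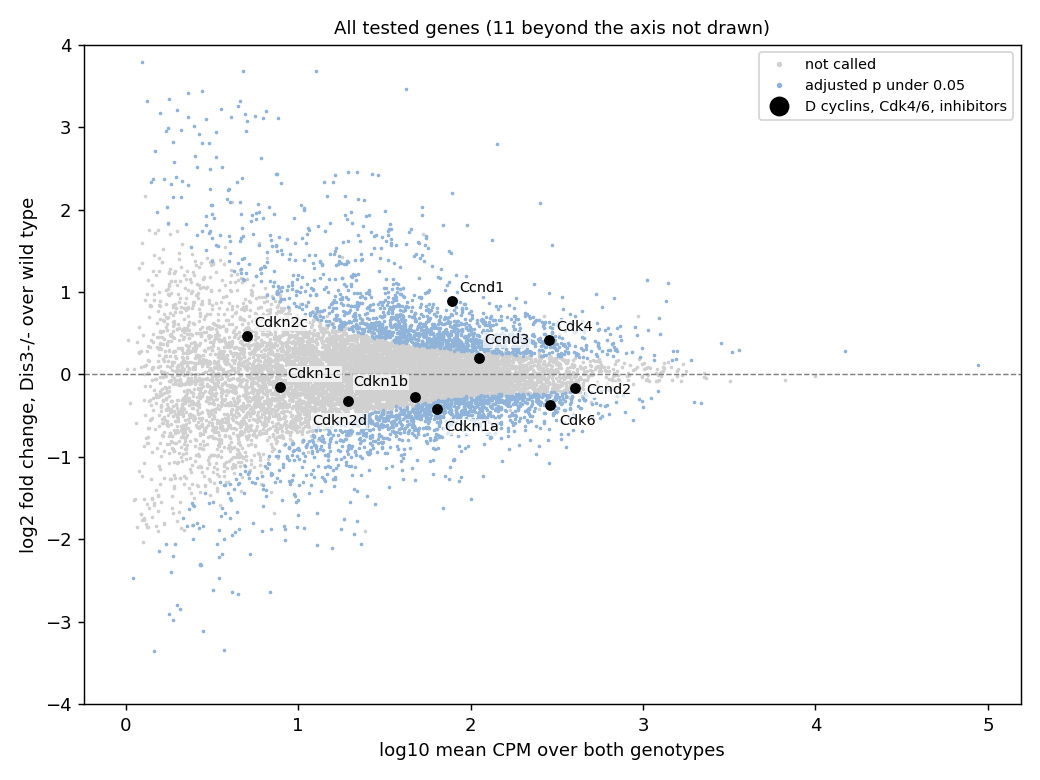
Log2 fold change, Dis3-/- over wild type, against log10 mean CPM for all tested genes, with the 10 genes in black and genes with an edgeR adjusted p under 0.05 in blue. Among the 10, Ccnd1 has the largest change, at 0.89, and Cdkn1c and Cdkn2c are the lowest of the 10 in CPM.

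The libraries differed within genotype too. All 10 genes had a higher CPM in Dis3-/- replicate 1 than in replicate 2, as did 52.4% of all tested genes. In wild-type cells 2 of the 10 were higher in replicate 1. By the distance between centred log2 CPM profiles over the 4 libraries, the genes nearest Ccnd1 were Fignl1 (0.86), Uqcc2 (0.91) and Ndufb6 (0.94), with their log2 fold changes in brackets. Those nearest Cdk6 were 2610301B20Rik (-0.37), Cyp7b1 (-0.39) and Ccdc8 (-0.40). With 4 libraries such likeness is common: 75 genes lay within a distance of 0.2 of Ccnd1 and 342 within that of Cdk6.

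Other genes around these members are given by list. Beside each list stand all tested genes, of which 12.7% rose and 10.2% fell by edgeR, with a median log2 fold change of -0.0027. Of 23 tested genes at the G1 to S transition 8 rose and 0 fell by edgeR (median log2 fold change 0.32). DESeq2 and limma-voom called 0 lower too, 1 gene was lower at an unadjusted edgeR p under 0.05, edgeR with no filter or with robust estimation each called 1 lower, and on log2(TPM + 1) values with no filter 2 genes rose. The repressor genes E2f7 (54.9 ± 4.02 CPM in Dis3-/- and 26.6 ± 1.70 CPM in wild-type cells; 1.04 ± 0.13, edgeR adjusted p = 1.21e-04) and E2f8 (0.99 ± 0.15, edgeR adjusted p = 3.43e-04) had the smallest p, though E2f7 missed on unfiltered TPM (limma adjusted p = 0.0527). The cyclins and kinase that act after the D cyclins were picked after their values were seen. Ccne1 averaged 13.2 ± 0.574 CPM in Dis3-/- and 4.79 ± 0.864 CPM in wild-type cells (1.47 ± 0.28, edgeR adjusted p = 2.13e-03), and Ccne2 rose as well (0.91 ± 0.20, edgeR adjusted p = 5.11e-03) but missed on unfiltered TPM (limma adjusted p = 0.0862). Their kinase Cdk2 (0.25 ± 0.12, edgeR adjusted p = 0.129) did not pass, nor did Rb1, the main substrate of Cdk4 and Cdk6 (0.35 ± 0.12, edgeR adjusted p = 0.0561). Without wild-type replicate 1 the values were 0.41 for Cdk2 and 0.49 for Rb1. Rb1 passed in edgeR with no filter (edgeR adjusted p = 0.0356) and with robust empirical Bayes (edgeR adjusted p = 0.0463). Without wild-type replicate 2 the Cdk2 value was 0.12.

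Of 18 tested genes for the turnover of D cyclins and Cip/Kip proteins 6 rose and 1 fell (median 0.15). The count that rose was 3 with DESeq2, 1 on TPM values, and 3 without either Dis3-/- replicate or 4 without either wild-type replicate. Cks1b, the cofactor with which the ligase SCF-Skp2 marks the Cdkn1b protein for degradation, averaged 44.4 ± 1.13 CPM in Dis3-/- and 20.0 ± 5.33 CPM in wild-type cells (1.15 ± 0.17, edgeR adjusted p = 3.95e-04). Dtl, whose ligase degrades the Cdkn1a protein in S phase, rose (0.39 ± 0.08, edgeR adjusted p = 3.26e-03; limma adjusted p = 0.0571 on log2(TPM + 1) values). Gsk3b, a kinase known to mark cyclin D1 for degradation, fell (-0.26 ± 0.08, edgeR adjusted p = 0.0362), a call that ended with DESeq2 (adjusted p = 0.0589), with the replicate block (edgeR adjusted p = 0.0636), on unfiltered TPM (limma adjusted p = 0.0623), without Dis3-/- replicate 2 (-0.20, edgeR adjusted p = 0.176) and without wild-type replicate 1 (0.0518) or 2 (0.186).

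Of 14 mitotic cyclin and kinase genes 12 rose and 0 fell by edgeR, with a median of 1.45, and DESeq2 and limma-voom as well as an unadjusted p under 0.05 gave 0 lower. On log2(TPM + 1) values with no filter 7 of them rose. The 12 stand beside 2 of 10 that rose among the D cyclin, kinase and inhibitor genes. Ccna2 (1.81 ± 0.13, edgeR adjusted p = 1.82e-06) and Bub1b (1.5 ± 0.13, edgeR adjusted p = 6.16e-06) had the smallest p. Of 20 genes linked to stem cell quiescence 1 rose and 11 fell (median -0.38); without Dis3-/- replicate 1, 4 rose and 9 fell, and on unfiltered log2(TPM + 1) values 1 rose and 7 fell. The antiproliferative gene Btg1 fell (-0.79 ± 0.08, edgeR adjusted p = 1.65e-05). The one that rose, Ccng1 (0.66 ± 0.09, edgeR adjusted p = 2.36e-04), is also a p53 target. The 7 stem cell marker genes, of which 1 rose and 3 fell, summed to 2007 and 1959 CPM in Dis3-/- against 2703 and 2372 CPM in wild-type libraries, and their part in these counts was not tested. Hlf and Mecom are in both the marker and the quiescence lists, and Hlf fell (-0.46 ± 0.10, edgeR adjusted p = 4.57e-03), so the lists are not independent.

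Of 18 genes, p53 (Trp53) and its targets, 8 rose and 1 fell (median 0.43), where Cdkn1a was lower. Gtse1 (2.46 ± 0.20, edgeR adjusted p = 4.19e-06) and Zmat3 (1.27 ± 0.11, edgeR adjusted p = 7.57e-06) rose, and Trp53inp1 fell (-0.40 ± 0.09, edgeR adjusted p = 7.12e-03), but missed on unfiltered TPM (limma adjusted p = 0.0522) and with wild-type replicate 1 left out (-0.35, edgeR adjusted p = 0.0534). Of 10 tested imprinted growth genes 1 rose and 1 fell by edgeR, near the 12.7% and 10.2% of all tested genes. On log2(TPM + 1) values 0 rose and 2 fell. The one that rose by edgeR, Kcnq1ot1, is the long noncoding RNA that silences Cdkn1c in cis on the paternal allele. It had 1400 and 1655 CPM in Dis3-/- libraries, against 1030 and 878 CPM in wild-type libraries (0.68 ± 0.08, edgeR adjusted p = 8.89e-05), and did not pass on log2(TPM + 1) values (0.55, limma adjusted p = 0.0555). Both Dis3-/- libraries were above both wild-type ones for Kcnq1ot1, and 62.4% of all tested genes had no overlap between genotypes. Cdkn1c itself did not pass the test, at a depth where a modest difference was not detectable. A link between the levels of these genes was not tested. Impact fell (-0.54 ± 0.09, edgeR adjusted p = 9.25e-04).

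**Figure D5:**
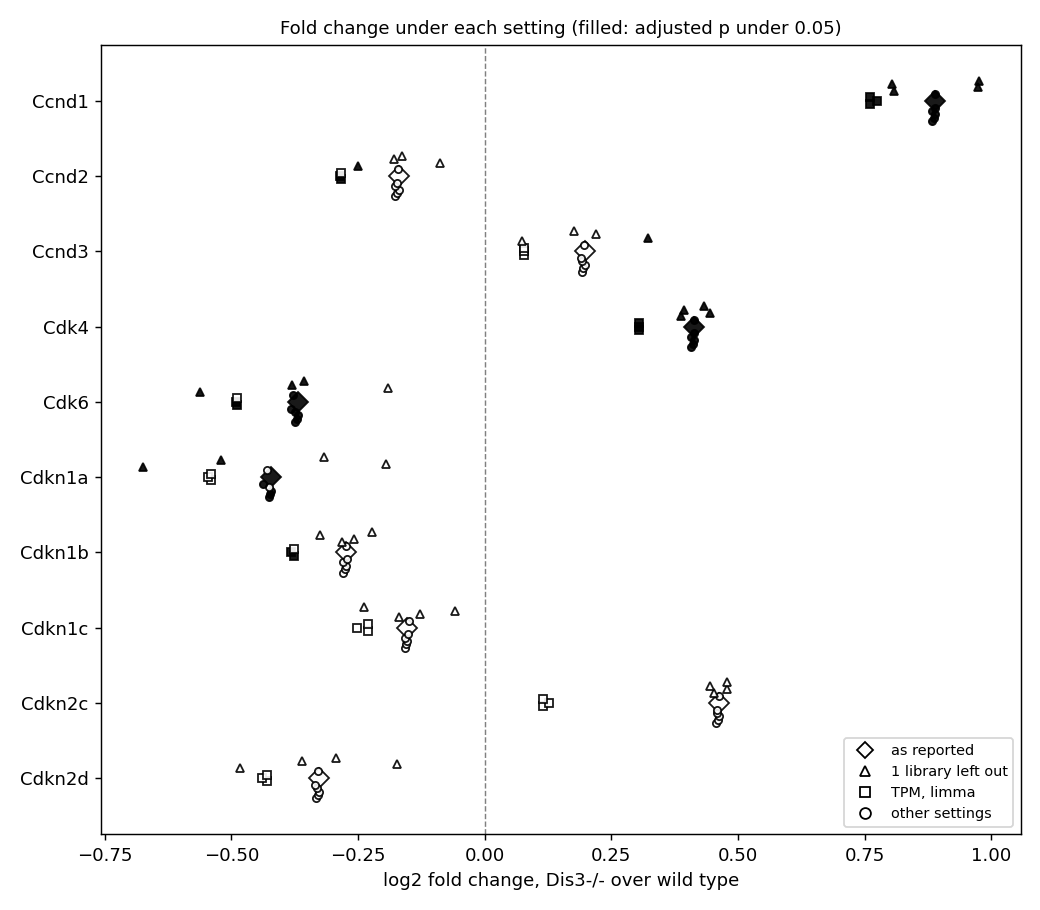
Log2 fold change of each gene, Dis3-/- over wild type, as reported (diamonds) and under 13 alternative settings, filled where the adjusted p was under 0.05. Ccnd1 and Cdk4 are filled in all settings, Cdk6 ranges between -0.19 and -0.56 and Cdkn1a between -0.19 and -0.67, and no gene changes sign.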

How the data were processed

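RNA-seq libraries of 100 stem cells were made by RamDA-seq, a total RNA method, with Nextera XT, per the labels' protocols. RSEM 1.3.3, STAR 2.7.8a, Trim Galore 0.6.6 and mm10 are named by the submitters' processing notes, with no roles; annotation and strand use were not given in the sources used here. The authors deposited expected counts per gene (not normalized, 92.3% to 92.6% of values whole with no tolerance) and TPM. Expected counts were rounded and tested with edgeR 4.0.16 (R 4.3.3): filterByExpr by genotype (minimum count 10, total 15), TMM, glmQLFit and a 2-sided glmQLFTest, Benjamini-Hochberg adjustment over all 12244 tested genes, threshold 0.05. SE is the fitted change on the log2 scale divided by the root of F. In these libraries 3 counts equal 0.505 and 0.469 CPM in Dis3-/- and 0.432 and 0.476 CPM in wild type; such limits cover counting error only, as reads are not independent molecules. Alternatives were RLE scaling, no filter, robust empirical Bayes, DESeq2 1.42.0, limma-voom and limma 3.58.1 on log2(TPM + 1) or log2(TPM + 0.1) (TPM of at least 1 in 2 libraries, or no filter), a replicate block and leaving out each library. TPM shares were recomputed on CPM. The procedure was tested on simulated data. No libraries were identical, and replicates differed beyond counting noise (chi-square per degree of freedom 4.28 in Dis3-/- and 3.61 in wild type). Coordinates are RefSeq GRCm38.p6 (mm10); overlaps and strands come from GENCODE M21.

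The genes, lists, alternatives and tests were chosen with earlier results of these data known. The genes named are the 10 described, Dis3, the 2 called genes of smallest p per list and direction, and the 3 of nearest profile for the member of smallest p in each direction. Ccne1, Ccne2, Cdk2, Rb1, Cdkn2a, Cdkn2b, the overlapping genes and the marker genes lie outside that rule. One gene that the rule names is not reported here.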

Additional observations from a re-analysis of the deposited data

How the results depend on the processing

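None of the 10 genes changed the sign of its log2 fold change under any of the 13 alternatives. On log2(TPM + 1) values the median of all tested genes was -0.106; relative to it Ccnd1 was at 0.87, Cdk4 at 0.41, Cdk6 at -0.38, Cdkn1a at -0.43, Ccnd2 at -0.18 and Cdkn1b at -0.27. Genes called higher and lower numbered 1000 and 742 with DESeq2, 479 and 471 on log2(TPM + 1) without a filter, and 1561 and 1250 as reported. The higher count was 948 on log2(TPM + 1) and 912 on log2(TPM + 0.1). Members called lower were 1 with DESeq2, 1 with the replicate block and 0 on log2(TPM + 1) without a filter, against 2 as reported. Leaving out 1 library gave 0 to 3 members called lower and 2 to 3 called higher. On log2(TPM + 1) the Cdkn1a call ended with the filter and without it (limma adjusted p = 0.0599 and 0.122) and the Cdk6 call ended without it (0.0793), whereas edgeR with no filter kept both calls. The cause of these changes was not tested.

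The labels' replicate numbers do not show pairing: deviations of the same-numbered Dis3-/- and wild-type libraries from their group means correlated at -0.0315 over 9434 genes. With the replicate block 1463 genes were called higher and 1151 lower, and Cdkn1a (edgeR adjusted p = 0.0601) and, among the other genes named, Gsk3b (0.0636) were not called.

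For TPM sums as log2 ratios of Dis3-/- over wild type, leaving out 1 library gave -0.0742 to 0.0788 for the D cyclins, -0.0205 to 0.0864 for the kinases, -0.0364 to 0.0841 for both together and -0.413 to -0.258 for the INK4 genes. On CPM the INK4 value was -0.163, where TPM gave -0.334, and inhibitors per 100 G1 entry transcripts were -0.342, where TPM gave -0.456. Depth limits Cdkn1c and Cdkn2c, each with at most 61 counts in a library. The 2 libraries per genotype limit all tests here.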
